A study of Mus musculus with 29 samples.

Results

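The genes described here encode the working parts of the lysosome, and 49 of the 23930 genes in the table were members. A gene was a member if its symbol began with Atp6v (subunits of the vacuolar proton pump) or if it was one of 35 listed lysosomal genes, and if its mean over the 29 libraries was at least 1 RPM (reads of a gene scaled to a common library total). Of 54 candidates in the table, 19 were Atp6v genes, of which 15 passed, and 34 of the 35 listed genes passed. The 5 below the level were Atp6v0a4 (mean 0.159 RPM), Atp6v1b1 (0.00893 RPM), Atp6v1c2 (0.0212 RPM), Atp6v1g3 (0.00503 RPM) and Idua (0.0335 RPM). The lowest members were Atp6v0e2 at 1.77 RPM and Atp6v1g2 at 2.29 RPM, and 47 members stood at 5 RPM or more. The level does not use any difference between groups. By role the members were 8 V1 and 7 V0 subunits of the pump, 7 membrane proteins, 10 glycolipid and lipid hydrolases with their activators, 9 glycan hydrolases, 6 proteases and other soluble proteins (Acp2, Acp5, Grn, Lgmn, Ppt1 and Tpp1) and 2 transcription factors.

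Lysosomes are the acidic organelles in which macrophages digest engulfed cells, glycans, lipids, proteins and nucleic acids. The V-ATPase pumps protons into them: its cytosolic V1 sector splits ATP and its membrane V0 sector conducts the protons. Soluble hydrolases work at the low pH that results, activator proteins such as Psap and Gm2a present lipids to them, and membrane proteins such as Lamp1, Lamp2, Npc1 and Mcoln1 form the wall, export products or release ions. Tfeb and Tfe3 are transcription factors that bind a short element in the promoters of many lysosomal genes. RNase T2, the enzyme removed in the mutant mice, is itself an endolysosomal ribonuclease.

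The study compared freshly sorted, untreated macrophages of C57BL/6 mice that were wild type (WT) or Rnaset2-/- (KO), the latter lacking both Rnaset2a and Rnaset2b. Ly6C-high and Ly6C-low macrophages were taken from spleen and from liver of each genotype, with 3 libraries per group and 4 in the splenic Ly6C-low KO group, and 4 libraries came from WT Kupffer cells (KCs), the resident macrophages of the liver. Ly6C-high cells were gated as CD11b-positive and negative for Ly6G, SiglecF and NK1.1, Ly6C-low cells also as positive for Fcgr4 (CD16.2), and KCs as F4/80-positive, Tim4-positive cells with intermediate CD11b, as the sample labels state. The methods of the study print 1 and the same gate, low in Ly6C and high in CD16.2, for both hepatic KO subsets, and sort KCs without naming Tim4, so that the hepatic KO Ly6C-high group rests on its label. Mice of both sexes were used and their ages are not given. The deletion was carried in the germ line, so that all KO groups shared it.

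To show the element that Tfeb and Tfe3 are known to bind, the annotated promoter windows of the members were searched for CACGTG, which reads the same on both strands. RefSeq windows of 300 bases (250 before to 50 after the annotated start, build GRCm38.p6) were found for 41 members. Of these, 14 held CACGTG, or 34.1%, against 8.09% of the 27025 genes with a window. Counted by window, the shares were 27.5% of 51 member windows and 7.15% of all 32851 windows. The longer GTCACGTG, searched on both strands and always containing CACGTG, occurred in 11 of the 41 members, or 26.8%, against 2.55% of all genes. The stretches printed here belong to 4 of the 7 members with the element that rose and to the 3 that fell in hepatic Ly6C-low KO macrophages. They are examples, and copy numbers are not compared between both kinds. Each is 80 bases, 5′ to 3′ on the strand of its gene, with CACGTG in capitals.
Naglu (chr11:101069984-101070063, plus strand): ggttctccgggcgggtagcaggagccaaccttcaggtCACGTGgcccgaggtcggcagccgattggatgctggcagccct
Lgmn (chr12:102439099-102439178, minus strand): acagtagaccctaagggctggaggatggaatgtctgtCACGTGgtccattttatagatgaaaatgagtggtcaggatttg
Glb1 (chr9:114400993-114401072, plus strand): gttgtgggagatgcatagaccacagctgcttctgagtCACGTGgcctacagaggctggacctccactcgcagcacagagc
Lamp1 (chr8:13159081-13159160, plus strand): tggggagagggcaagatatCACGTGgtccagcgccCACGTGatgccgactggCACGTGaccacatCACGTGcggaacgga
Gla (chrX:134601174-134601253, minus strand): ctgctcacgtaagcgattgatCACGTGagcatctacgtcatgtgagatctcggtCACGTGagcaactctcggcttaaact
Mcoln1 (chr8:3500424-3500503, plus strand): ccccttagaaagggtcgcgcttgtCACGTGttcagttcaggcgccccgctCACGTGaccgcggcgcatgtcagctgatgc
Cln3 (chr7:126583329-126583408, minus strand, at its second annotated start): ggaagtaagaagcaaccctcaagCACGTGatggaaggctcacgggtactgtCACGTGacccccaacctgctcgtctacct
In these stretches Lamp1 held 4 copies, Gla, Mcoln1 and Cln3 held 2 each, and Naglu, Lgmn and Glb1 held 1. The element was present in 7 of the 16 members with a window that rose in hepatic Ly6C-low KO macrophages and in 3 of the 6 that fell. Of the 7, Atp6v0b (2 copies before the start) and Gaa (1 copy) are not printed, nor is Atp6v0e, which held no complete copy before the start. A match of letters is a description of the window and was not tested for binding.

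Library size ranged from 11175843 to 21167602 reads (median 13027220), so that 3 reads, taken as the floor of detection, corresponded to 0.142 to 0.268 RPM. This floor covers counting error only. Each gene was read through 1 amplicon, so a difference in RPM between genes is no difference in transcript number, and sums over genes are sums of reads. All 8 genes of a macrophage list were detected in every group, at sums of 4886 to 36090 RPM, the lowest being KC replicate 3. The 6 genes of a Kupffer cell list summed to 6035 to 17895 RPM in KCs and to 5852 to 11039 RPM in hepatic Ly6C-low KO macrophages, against 98.8 to 147 RPM in hepatic Ly6C-low WT macrophages. A sum does not show each gene. The list holds Clec4f and Timd4 (Tim4), which the paper reports as not expressed in hepatic Ly6C-low KO macrophages, and Cd5l (AIM), which it reports as high there. In hepatic Ly6C-high macrophages the list summed to 384 to 472 RPM in KO and 7.56 to 12.9 RPM in WT libraries, and in spleen to 4.30 to 450 RPM, where Clec4f was at 0 in all groups but Ly6C-low KO. In the liver, Xist was at 321 to 539 RPM in the Ly6C-high and Ly6C-low WT libraries and at 0 to 0.154 RPM in the KO libraries. The 4 Y-linked genes summed to 150 to 291 RPM in the hepatic KO libraries and 0 to 52.0 RPM in the hepatic WT libraries. Genotype and sex therefore cannot be told apart in the liver, and 4 members (Gla, Ids, Lamp2 and Tfe3) lie on the X chromosome. Splenic Ly6C-low KO replicate 2 was the one splenic library with Y-linked reads at that height (301 RPM). Whether replicates came from separate animals is not stated, so that p-values measure the spread between these samples, which may be technical.

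Summed over the 49 members, WT hepatic Ly6C-low macrophages held 9969 ± 437 RPM (SD, n = 3) and KO hepatic Ly6C-low macrophages 16203 ± 1503 RPM (n = 3), the highest of the 9 groups. The other sums were 13619 ± 994 RPM in WT and 12029 ± 2908 RPM in KO hepatic Ly6C-high macrophages, 12770 ± 34 RPM in WT and 11505 ± 1131 RPM in KO splenic Ly6C-high macrophages, and 9259 ± 531 RPM in WT and 9950 ± 574 RPM (n = 4) in KO splenic Ly6C-low macrophages. KCs held 13320 ± 2816 RPM (n = 4). Hepatic Ly6C-low libraries ranged from 9492 to 10349 RPM in WT and from 15142 to 17923 RPM in KO mice and did not overlap, whereas the hepatic Ly6C-high genotypes did. In hepatic Ly6C-low cells the proteases and other soluble proteins summed to 1485 ± 116 RPM in WT and 7583 ± 321 RPM in KO libraries, with Acp5 and Grn among them, while the glycolipid group, which holds the sphingolipid activator precursor Psap, summed to 5706 ± 364 and 4601 ± 974 RPM.

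Different groups carried the peak of different members. KCs had the highest mean of 18 members, among them Atp6v0a1 and Atp6v0a2, hepatic Ly6C-low KO and splenic Ly6C-high KO macrophages that of 7 each, and splenic Ly6C-high WT macrophages that of 0. The 18 include Atp6v0e2, which is a member only through KCs. Hepatic Ly6C-low WT macrophages had the lowest mean of 15 members. These ranks use RPM as deposited, without the scaling between libraries that the comparisons below use. Without scaling, the median log2 difference of all genes between KCs and hepatic Ly6C-low WT macrophages was 0.527 higher. The same ranks were not counted over all genes. After scaling, 26.5% of members and 26.0% of all genes tested were called higher in KCs than in those WT cells. In bulk samples, fewer cells with a transcript and less of it in each cell cannot be told apart.

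**Figure D1:**
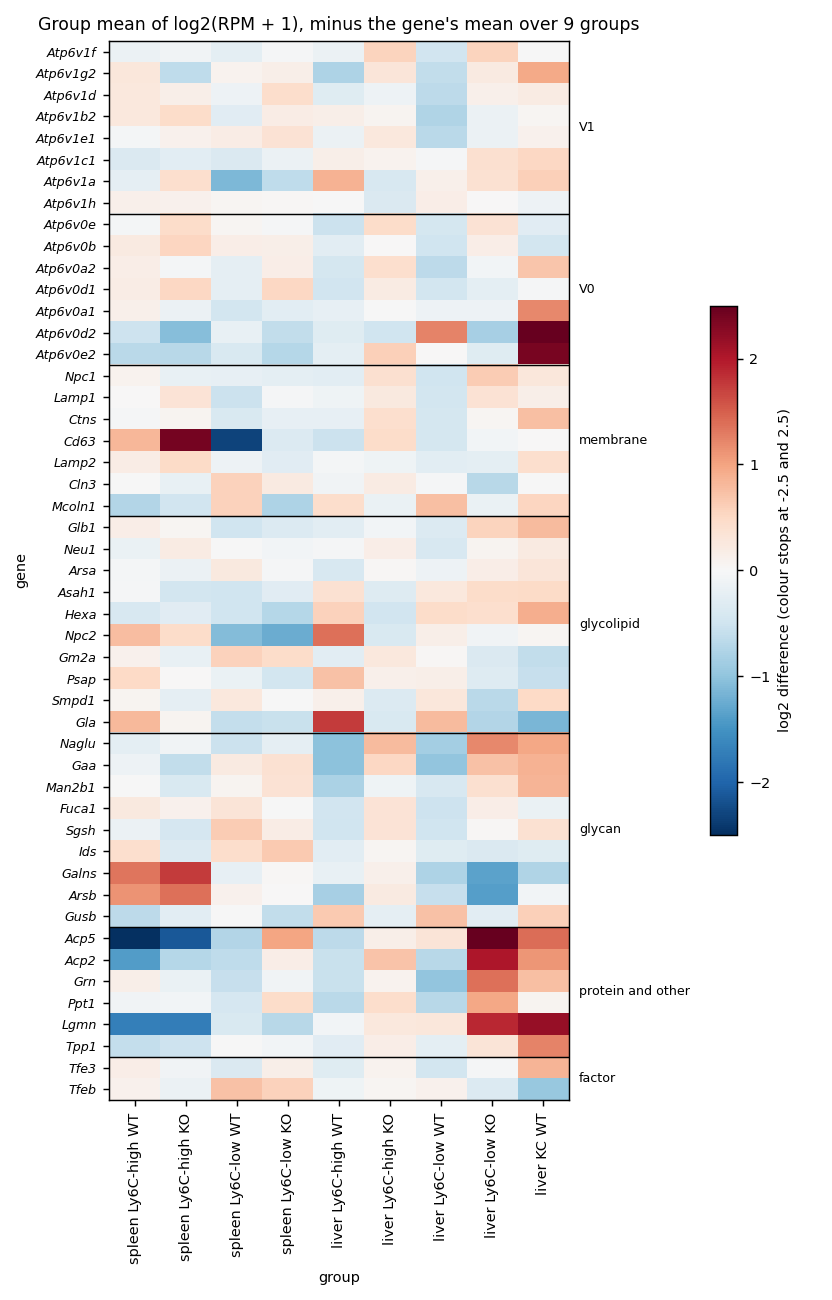
Group means of the 49 genes as log2(RPM + 1) minus each gene's mean over the 9 groups, with genes in rows ordered by role, groups in columns and colour for the difference. In RPM without scaling between libraries, KCs hold the highest mean of 18 genes and hepatic Ly6C-low WT macrophages the lowest of 15. The 18 include Atp6v0e2, which is a member only through KCs.

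The first comparison asked which lysosomal genes differed between KO and WT hepatic Ly6C-low macrophages. A difference was called when it exceeded 1.5-fold at an adjusted p below 0.05 (limma on log2(RPM scaled by size factors + 1), Benjamini-Hochberg over all genes tested). Of 48 members tested, 17 rose, or 35.4% against 20.2% of the 10808 genes tested, and 7 fell, or 14.6% against 22.5% of all genes. Atp6v1g2 among the risers and Atp6v0d2 among the fallers reached the level for testing, 1 RPM in 3 libraries, only in the genotype where they were higher, and 16 rose and 6 fell without them. The median log2 difference was 0.41 over the members and 0.01 over all genes. The proteases and other soluble proteins were called most often, with 5 of 6 rising, while the glycolipid hydrolases and activators had 1 rising and 2 falling of 10.

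Acp5, the tartrate-resistant acid phosphatase of macrophages and osteoclasts, was at 208, 334 and 298 RPM in the WT libraries and at 1498, 2524 and 3153 RPM in the KO libraries. Every KO library stood above every WT library, and the log2 difference was 3.01 (SE 0.32, adjusted p = 0.000236, limma). Acp2, a lysosomal acid phosphatase, measured 73.9, 67.0 and 73.3 RPM in WT and 512, 535 and 396 RPM in KO libraries, a log2 difference of 2.68 (SE 0.159, adjusted p = 1.97e-05, limma). Its WT libraries lay close together, and the lowest KO library was well above them. Grn, the precursor of the lysosomal granulins, was at 579, 636 and 606 RPM in WT and at 3755, 2880 and 2783 RPM in KO libraries, with a log2 difference of 2.32 (SE 0.197, adjusted p = 8.17e-05, limma). Naglu, which removes N-acetylglucosamine from heparan sulfate, was at 15.8, 27.1 and 24.4 RPM in WT and at 138, 104 and 57.9 RPM in KO libraries, with a log2 difference of 2.01 (SE 0.332, adjusted p = 0.00194, limma). KO replicate 3 was the lowest KO library for Naglu and was still above all 3 WT libraries.

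The fallers described next were 1 pump subunit and 3 enzymes of lipid and glycan breakdown. Atp6v0d2, a V0 subunit known from osteoclasts and tissue macrophages, was at 4.06, 4.79 and 4.29 RPM in WT libraries (48 to 55 reads each) and at 0.308, 0.233 and 0.306 RPM in KO libraries (3 to 4 reads each). It entered the test through the WT libraries alone, so it is given as a description, with a log2 difference of -2.09 and with 152 reads over all WT and 11 over all KO libraries. Gla, the alpha-galactosidase that splits globosides and is X-linked, was at 52.9, 91.9 and 92.0 RPM in WT and 41, 22.1 and 19.3 RPM in KO libraries, with a log2 difference of -1.56 (SE 0.334, adjusted p = 0.00635, limma). Both genes were lower in every KO library than in any WT library. Gusb, the beta-glucuronidase, was at 67.6, 50.3 and 64.2 RPM in WT and 24.2, 31.5 and 34.4 RPM in KO libraries, a log2 difference of -1.03 (SE 0.201, adjusted p = 0.00415, limma). Smpd1, the acid sphingomyelinase, was at 17.7, 20.7 and 23.8 RPM in WT and 11.3, 9.96 and 9.26 RPM in KO libraries, a log2 difference of -0.99 (SE 0.207, adjusted p = 0.0056, limma). Neither overlapped between the genotypes.

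**Figure D2:**
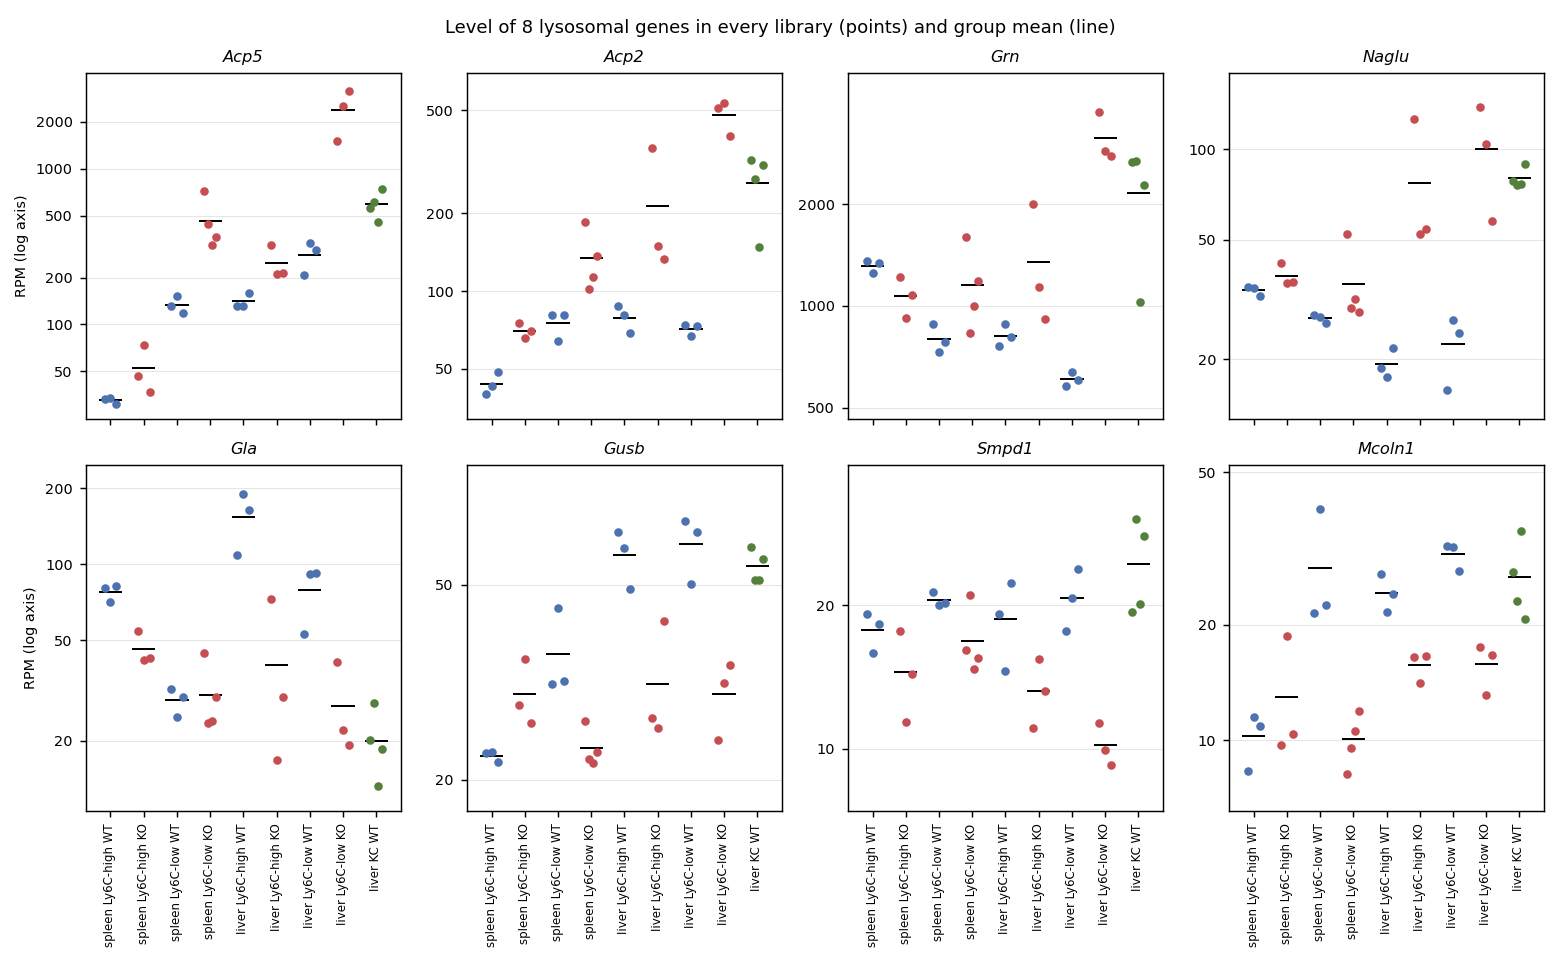
RPM of 8 genes in every library on a log axis, with WT in blue, KO in red, KCs in green and a line at each group mean. Acp5, Acp2, Grn and Naglu lie higher in all 3 hepatic Ly6C-low KO libraries than in the 3 WT libraries, and Gla, Gusb, Smpd1 and Mcoln1 lie lower.

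By role, the glycan hydrolases had 4 of 9 rising and 2 falling. Gaa, which digests glycogen, rose by 1.68 on the log2 scale, the alpha-mannosidase Man2b1 by 0.76 and the fucosidase Fuca1 by 0.63, and Arsb, a sulfatase of dermatan sulfate, fell by 0.85. In RPM, Man2b1 overlapped between the genotypes. The cysteine protease Lgmn averaged 951 ± 349 RPM in KO and 306 ± 60.2 RPM in WT libraries (SD, n = 3), a log2 difference of 1.55, and the palmitoyl thioesterase Ppt1 averaged 532 ± 206 and 161 ± 41.1 RPM, a log2 difference of 1.63. Of 14 V-ATPase genes tested, 5 rose and 1 fell, the risers being Atp6v1f (log2 difference 0.99), Atp6v1g2 (0.82), Atp6v0e (0.77), Atp6v1d (0.75) and Atp6v0b (0.63). Atp6v1g2 and the faller, Atp6v0d2, reached the level for testing only in the genotype where they were higher. The summed V1 genes were at 464 ± 39.4 RPM in WT and 716 ± 105 RPM in KO libraries, and the summed V0 genes at 426 ± 37.6 and 635 ± 103 RPM. Among 7 membrane proteins, the cholesterol exporter Npc1 (1.08) and Lamp1 (0.77) rose, and the cation channel Mcoln1 (-0.96) and Cln3 (-0.70), whose loss causes a neuronal storage disease, fell. Of the glycolipid group, the beta-galactosidase Glb1 rose (0.85).

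No single library moved either count by more than 1.5 times. The 10 genes of an immediate early and dissociation response list summed to 18696 to 27528 RPM in WT and 963 to 1139 RPM in KO hepatic Ly6C-low libraries, and 5 sinusoidal endothelial genes to 247 to 375 and 1096 to 4010 RPM. Their part in these differences, and that of the Kupffer cell list given above, was not tested.

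**Figure D3:**
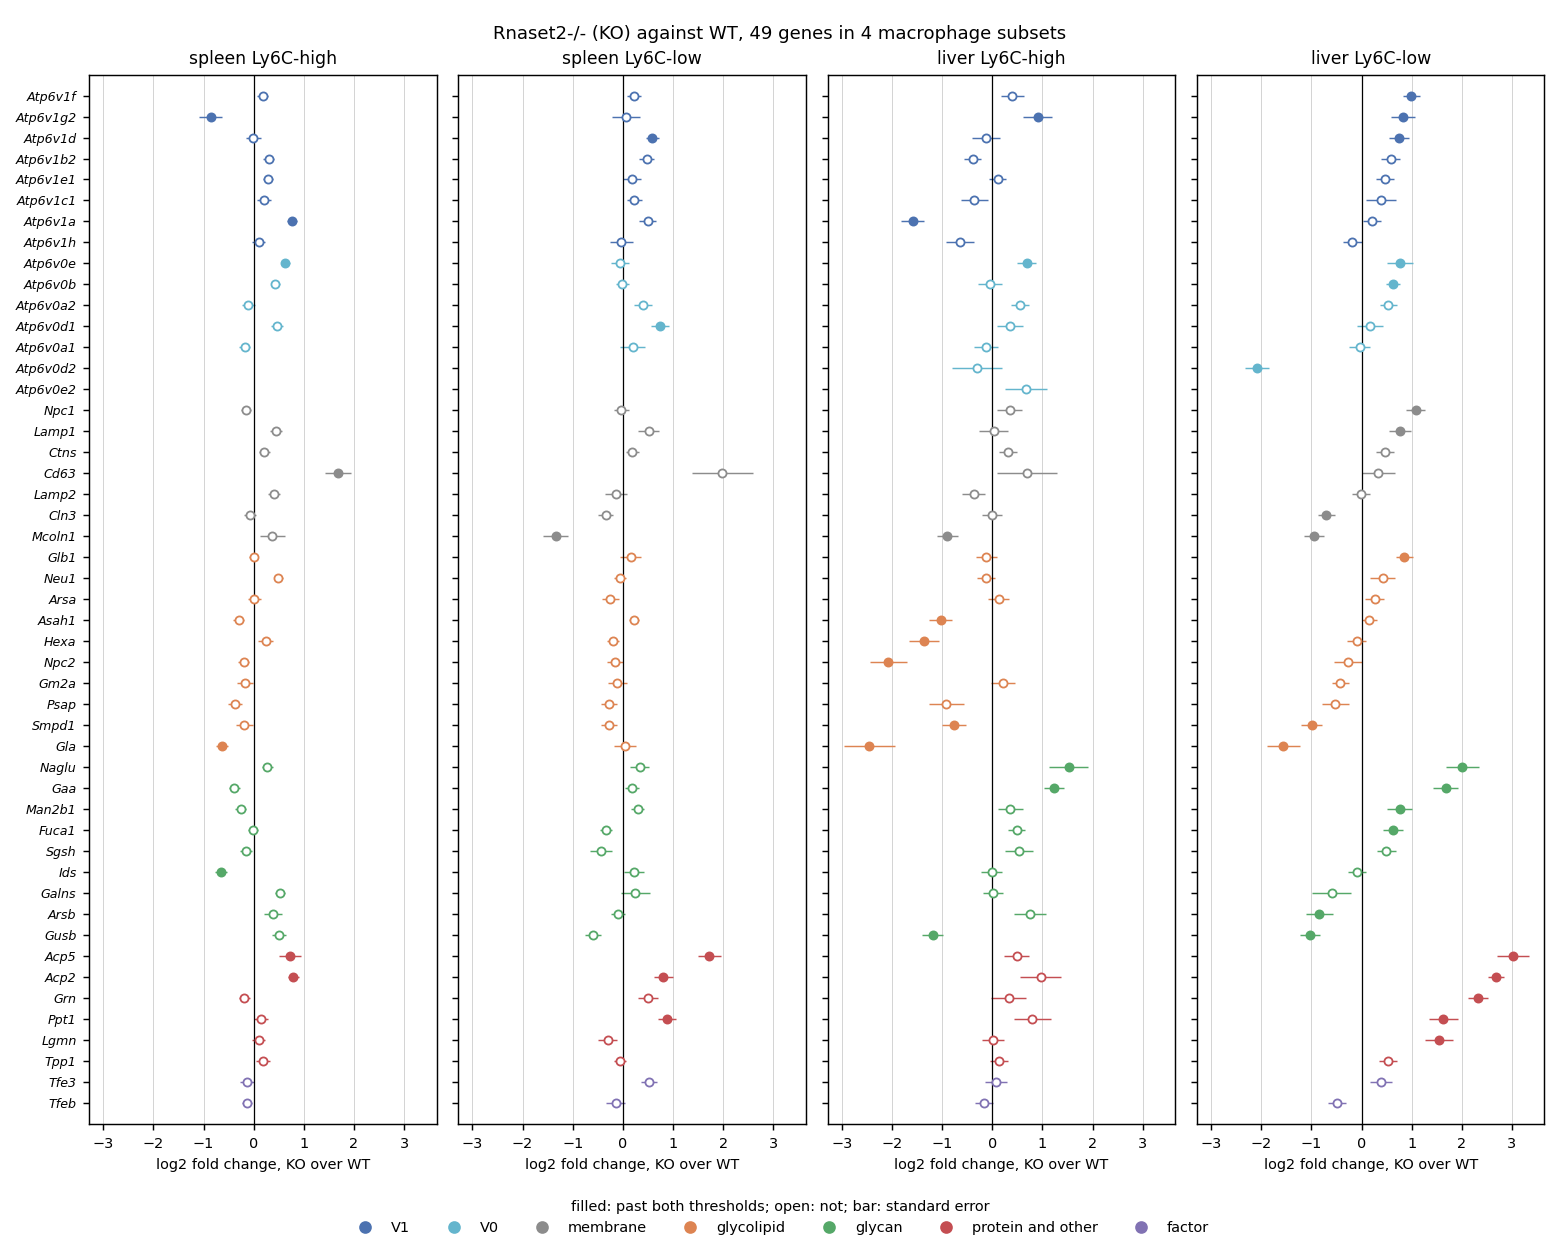
Log2 difference between KO and WT macrophages for the 49 genes in the 4 sorted populations, with bars for 1 standard error, filled points for called differences and colours for roles. Hepatic Ly6C-low macrophages had 17 rising and 7 falling genes, or 35.4% and 14.6% against 20.2% and 22.5% of all genes tested. Splenic Ly6C-low macrophages had 5 and 1, or 10.6% and 2.13% against 4.05% and 4.30%. Among the hepatic calls, Atp6v1g2 and Atp6v0d2 reached the level for testing only in the genotype where they were higher.

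The same question was asked of hepatic Ly6C-high macrophages. Of 49 members tested, 4 rose, or 8.16% against 15.7% of the 10957 genes tested, and 8 fell, or 16.3% against 14.9%. The members' median log2 difference was 0.03 and that of all genes 0.01. Falls were most frequent among the glycolipid hydrolases and activators, with 5 of 10 falling, 0 rising and a median of -0.84. Their sum was 8929 ± 568 RPM in WT and 5415 ± 1665 RPM in KO libraries (SD, n = 3). Psap (mean 5088 RPM in WT and 3460 RPM in KO libraries) and Npc2 (2640 and 835 RPM) made up most of both sums. Psap was not called (log2 difference -0.92).

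Npc2, the soluble partner of Npc1 that carries cholesterol, was at 2811, 2506 and 2602 RPM in WT and at 1291, 647 and 568 RPM in KO libraries. The groups did not overlap and the log2 difference was -2.07 (SE 0.373, adjusted p = 0.00603, limma). Gla was at 109, 190 and 164 RPM in WT and at 72.6, 16.8 and 29.8 RPM in KO libraries, with a log2 difference of -2.45 (SE 0.515, adjusted p = 0.0108, limma). Hexa, the alpha subunit of beta-hexosaminidase, was at 164, 117 and 182 RPM in WT and at 97.3, 64.6 and 62.1 RPM in KO libraries, with a log2 difference of -1.36 (SE 0.293, adjusted p = 0.0119, limma). Atp6v1a, the catalytic V1 subunit, was at 184, 168 and 188 RPM in WT and at 90.7, 61.8 and 71.5 RPM in KO libraries, with a log2 difference of -1.59 (SE 0.223, adjusted p = 0.00235, limma). For all 4 genes KO replicate 1 was the KO library nearest to WT. Gusb (-1.19), Asah1, the acid ceramidase (-1.03), Mcoln1 (-0.90) and Smpd1 (-0.76) also fell, and in RPM Smpd1 overlapped between the genotypes.

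The 4 risers were 2 glycan hydrolases and 2 pump subunits. Naglu was at 18.7, 17.5 and 21.7 RPM in WT and at 126, 52.1 and 54.4 RPM in KO libraries, with a log2 difference of 1.52 (SE 0.386, adjusted p = 0.0214, limma). Gaa was at 25.7, 29.5 and 27.3 RPM in WT and at 94.5, 69.3 and 84.5 RPM in KO libraries, with a log2 difference of 1.23 (SE 0.203, adjusted p = 0.0043, limma). Both were higher in every KO library. Atp6v0e was at 93.0, 131 and 99.7 RPM in WT and at 214, 233 and 198 RPM in KO libraries, with a log2 difference of 0.68 (SE 0.188, adjusted p = 0.0281, limma). Atp6v1g2, a V1 stalk subunit best known from neurons, was at 0.617, 1.17 and 0.447 RPM in WT and at 2.15, 3.63 and 2.31 RPM in KO libraries, a log2 difference of 0.91. It entered the test through the KO libraries alone, so that 3 members rose without it, and its call was lost in 8 of 13 alternative settings. Acp2, Acp5 and Grn, which rose most in hepatic Ly6C-low cells, were not called here. Their log2 differences were 0.96 for Acp2 (adjusted p = 0.107, limma), 0.48 for Acp5 (adjusted p = 0.186, limma) and 0.33 for Grn (adjusted p = 0.501, limma). In RPM, Acp2 still lay at 68.5 to 87.4 in WT and 133 to 356 in KO libraries. Acp5 lay at 131 to 158 RPM in WT and 211 to 323 RPM in KO libraries.

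KO replicate 1 stood apart, at 2009 RPM of Grn and 356 RPM of Acp2. Without it 7 members rose and 11 fell, whereas 1 rose without WT replicate 1 or 3 and 2 without KO replicate 2, and 4 fell without WT replicate 1 and 5 without WT replicate 3 or KO replicate 2. Scaling mattered too: the median of all genes was 0.29 higher in RPM as deposited, where 10 members rose in place of 4, and over all genes 2661 rose and 905 fell in place of 1717 and 1634. The immediate early list was at 24606 to 27224 RPM in WT and 3279 to 4564 RPM in KO libraries, 7 T and NK cell genes summed to 7.96 to 17.8 and 355 to 480 RPM, 5 erythroid genes to 0.463 to 3.76 and 51.1 to 254 RPM, 5 sinusoidal endothelial genes to 72.2 to 99.7 and 342 to 2067 RPM, and 5 B cell genes to 28.2 to 35.0 and 149 to 367 RPM. Their part in the result was not tested.

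In splenic Ly6C-low macrophages, 5 of 47 members rose in KO mice, or 10.6% against 4.05% of the 10295 genes tested, and 1 fell, or 2.13% against 4.30%. The members' median log2 difference was 0.16 and that of all genes 0.01. Of the 6 proteases and other soluble proteins, 3 rose, and none of the 10 glycolipid or 9 glycan genes tested was called. Acp5 was at 131, 152 and 118 RPM in WT and at 719, 439, 323 and 367 RPM in KO libraries, without overlap, and its log2 difference was 1.73 (SE 0.23, adjusted p = 0.00468, limma).

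Ppt1 was at 230, 158 and 198 RPM in WT and at 474, 349, 294 and 318 RPM in KO libraries, a log2 difference of 0.88 (SE 0.174, adjusted p = 0.0207, limma). Acp2 was at 80.9, 64.2 and 80.7 RPM in WT and at 186, 102, 113 and 136 RPM in KO libraries, a log2 difference of 0.81 (SE 0.196, adjusted p = 0.0399, limma). Neither gene overlapped between genotypes, and KO replicate 1 was the highest library for both. Atp6v0d1, the V0 subunit that joins the rotor to the stalk, was at 64.6, 38.2 and 61.6 RPM in WT and at 95.5, 85.1, 94.9 and 82.7 RPM in KO libraries, a log2 difference of 0.74 (SE 0.184, adjusted p = 0.0426, limma). The calls of Acp2 and Atp6v0d1 were each lost in 7 of 14 alternative settings. Atp6v1d, a V1 rotor subunit, also rose (0.59). The one fall was Mcoln1, at 21.5, 40.1 and 22.5 RPM in WT and at 8.18, 9.51, 10.6 and 11.9 RPM in KO libraries, with a log2 difference of -1.34 (SE 0.251, adjusted p = 0.0176, limma).

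The tetraspanin Cd63, a component of late endosomes and of granulocyte granules, divided the KO libraries. It was at 13.5, 13.1 and 9.97 RPM in WT and at 132, 104, 20.4 and 22.7 RPM in KO libraries, and its log2 difference of 1.99 was not called (adjusted p = 0.0746, limma). The 9 genes of a granulocyte list summed in those 4 KO libraries to 27626, 15611, 2930 and 2107 RPM, in the same order, and to 664 to 1552 RPM in WT libraries. The list held Elane, Mpo, Prtn3, Ctsg, Camp, Ngp, Ltf, Retnlg and S100a8. Which cells carried these transcripts, and their part in the result, was not tested. The number of rising members was 2 without WT replicate 1, 1 without WT replicate 2 or 3, 3 without KO replicate 2 or 4 and 4 without KO replicate 1 or 3, and 0 fell without WT replicate 2 or 3 and 2 without KO replicate 1. Sinusoidal endothelial genes were at 271 to 325 RPM in WT and 1461 to 2202 RPM in KO libraries, with Stab2 at 0 in the KO libraries.

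In splenic Ly6C-high macrophages, 5 of 47 members rose, or 10.6% against 9.77% of the 10398 genes tested, and 3 fell, or 6.38% against 12.5%. The median log2 difference was 0.10 over the members and 0.01 over all genes. Cd63 was at 126, 114 and 104 RPM in WT and at 203, 387 and 507 RPM in KO libraries, with a log2 difference of 1.69 (SE 0.263, adjusted p = 0.000782, limma). The granulocyte list was at 21451 to 23840 RPM in WT and at 24319, 44895 and 42871 RPM in the KO libraries, and its part in the rise of Cd63 was not tested.

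Atp6v1a was at 79.4, 89.9 and 81.9 RPM in WT and at 133, 135 and 128 RPM in KO libraries, with a log2 difference of 0.77 (SE 0.0949, adjusted p = 0.000196, limma). Acp2 was at 40.0, 42.7 and 48.8 RPM in WT and at 75.3, 65.9 and 69.9 RPM in KO libraries, with a log2 difference of 0.79 (SE 0.107, adjusted p = 0.000335, limma). Both were separated clearly, with narrow ranges in both genotypes. Acp5 was at 33.2, 33.7 and 30.8 RPM in WT and at 46.9, 74.2 and 36.6 RPM in KO libraries, a log2 difference of 0.73 (SE 0.221, adjusted p = 0.0251, limma) whose call was lost in 6 of 13 alternative settings. Atp6v0e rose too (0.63, adjusted p = 0.000302, limma).

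The falls were 1 glycolipid hydrolase, 1 glycan hydrolase and 1 pump subunit. Gla was at 80.7, 70.6 and 81.6 RPM in WT and at 54.6, 41.9 and 42.4 RPM in KO libraries, a log2 difference of -0.63 (SE 0.121, adjusted p = 0.00279, limma). Ids, the X-linked sulfatase of heparan and dermatan sulfate, was at 115, 103 and 127 RPM in WT and at 75.5, 66.6 and 58.7 RPM in KO libraries, a log2 difference of -0.66 (SE 0.12, adjusted p = 0.00199, limma). Atp6v1g2 was at 1.67, 3.40 and 2.94 RPM in WT and at 0.661, 1.03 and 0.997 RPM in KO libraries, a log2 difference of -0.86, and entered the test through the WT libraries alone, so that 2 members fell without it. None of the 3 overlapped between the genotypes. Without KO replicate 3, 1 member fell in place of 3. The median of all genes was 0.11 lower in RPM as deposited, with 733 genes rising and 1620 falling in place of 1016 and 1295.

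The WT libraries of the spleen Ly6C-high group resembled each other more than other replicates did, with chi-square values between pairs averaging 6.17 to 8.75 over genes, and none of them held identical values. T and NK cell genes were at 557 to 613 RPM in these WT and 41.5 to 58.2 RPM in the KO libraries, erythroid genes at 103 to 107 and 2.69 to 9.21 RPM, and immediate early genes at 14817 to 14912 and 6935 to 9843 RPM. Their part in the differences was not tested.

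Across the 4 genotype comparisons, 18 of the 49 members were called in none, 20 rose in at least 1 and 13 fell in at least 1, though Atp6v0d2 and Atp6v0e2 were not tested in all 4. Atp6v1g2 is in both the rising and the falling count and Atp6v0d2 in the falling one. Each of their calls came where only the genotype with the higher level reached the level for testing. Of the 47 members tested in all 4, 36.2% were called in none, 42.6% rose and 25.5% fell in at least 1, against 38.6%, 32.6% and 35.1% of the 9700 genes tested in all 4. Calls in 3 or more comparisons were made for 6.38% of these members in the upward and 4.26% in the downward direction, against 2.16% and 3.29% of all genes. Acp2 and Acp5 were called higher in 3, all but hepatic Ly6C-high, and Atp6v0e rose in 3, all but splenic Ly6C-low. In hepatic Ly6C-high cells Acp2 and Acp5 were called in RPM as deposited (log2 differences 1.28 and 0.8). Their genotype differences in Ly6C-high cells were not called different between the organs, at 0.21 for Acp2 (adjusted p = 0.75, limma) and -0.21 for Acp5 (adjusted p = 0.704, limma). Gla fell in 3, all but splenic Ly6C-low, and Mcoln1 in 3, all but splenic Ly6C-high. Gaa, Naglu, Ppt1 and Atp6v1d rose in 2, and Gusb and Smpd1 fell in 2. In RPM as deposited, Mcoln1 (-0.59) and Smpd1 (-0.46) lost their calls in hepatic Ly6C-high cells. Atp6v0e (0.51) lost its call in splenic Ly6C-high and Atp6v1d (0.58) in splenic Ly6C-low cells. Further calls gained on that scale were Atp6v0a2 (0.86), Atp6v1f (0.72), Fuca1 (0.8) and Ppt1 (1.12) in hepatic Ly6C-high and Atp6v1b2 (0.62) in hepatic Ly6C-low cells. Atp6v1a was called in both directions, rising in splenic and falling in hepatic Ly6C-high cells. Atp6v1g2 was lower in KO splenic Ly6C-high cells and higher in both KO hepatic populations. It reached the level for testing each time only in the genotype where it was higher, so its pattern is a description.

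Whether the genotype difference itself differed between the organs was tested by an interaction term. In Ly6C-low macrophages the log2 difference was higher in liver for 11 of 48 members, or 22.9% against 12.1% of the 11308 genes tested, and lower for 3, or 6.25% against 14.7%. The proteases and other soluble proteins accounted for 4 of the 11, with a median of 1.56. Acp2 had a log2 difference of 2.68 in liver and 0.81 in spleen, differing by 1.89 (SE 0.254, adjusted p = 0.000221, limma). Lgmn rose in liver (1.55) and was at -0.31 in spleen, differing by 1.86 (SE 0.35, adjusted p = 0.00202, limma). Acp5, which rose in both organs, also differed between them, by 1.29 (SE 0.423, adjusted p = 0.0372, limma), a call lost in 12 of 20 alternative settings. Without Atp6v0d2, which was under the level for testing in some of the 4 groups, 2 members were lower.

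In Ly6C-high macrophages the difference was higher in liver for 5 of 49 members, or 10.2% against 17.6% of the 11398 genes tested, and lower for 9, or 18.4% against 16.0%. Atp6v1a, with -1.59 in liver and 0.77 in spleen, differed by -2.32 (SE 0.242, adjusted p = 2.63e-05, limma). Gaa went the other way, with 1.23 in liver and -0.38 in spleen, differing by 1.65 (SE 0.219, adjusted p = 0.000161, limma). Glycolipid genes made up 4 of the 9 lower members and glycan genes 3 of the 5 higher, or of 4 without Atp6v1g2, which was under the level for testing in some groups. The calls of Ids, Asah1, Lamp2 and Gla were each lost in 13 of 19 alternative settings. RPM as deposited, in which the median of all genes was 0.356 higher, gave 12 higher and 4 lower members, and over all genes 3148 higher and 841 lower in place of 2005 and 1818. All 14 called members kept their sign on that scale, and 9 kept their call. Leaving out hepatic KO replicate 1 gave 8 higher and 15 lower members, while the higher count was 2 without splenic WT replicate 3 or KO replicate 2 and 3 without splenic WT replicate 1 or 2, splenic KO replicate 3 or hepatic WT replicate 2, and the lower count was 5 without splenic WT replicate 2.

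**Figure D4:**
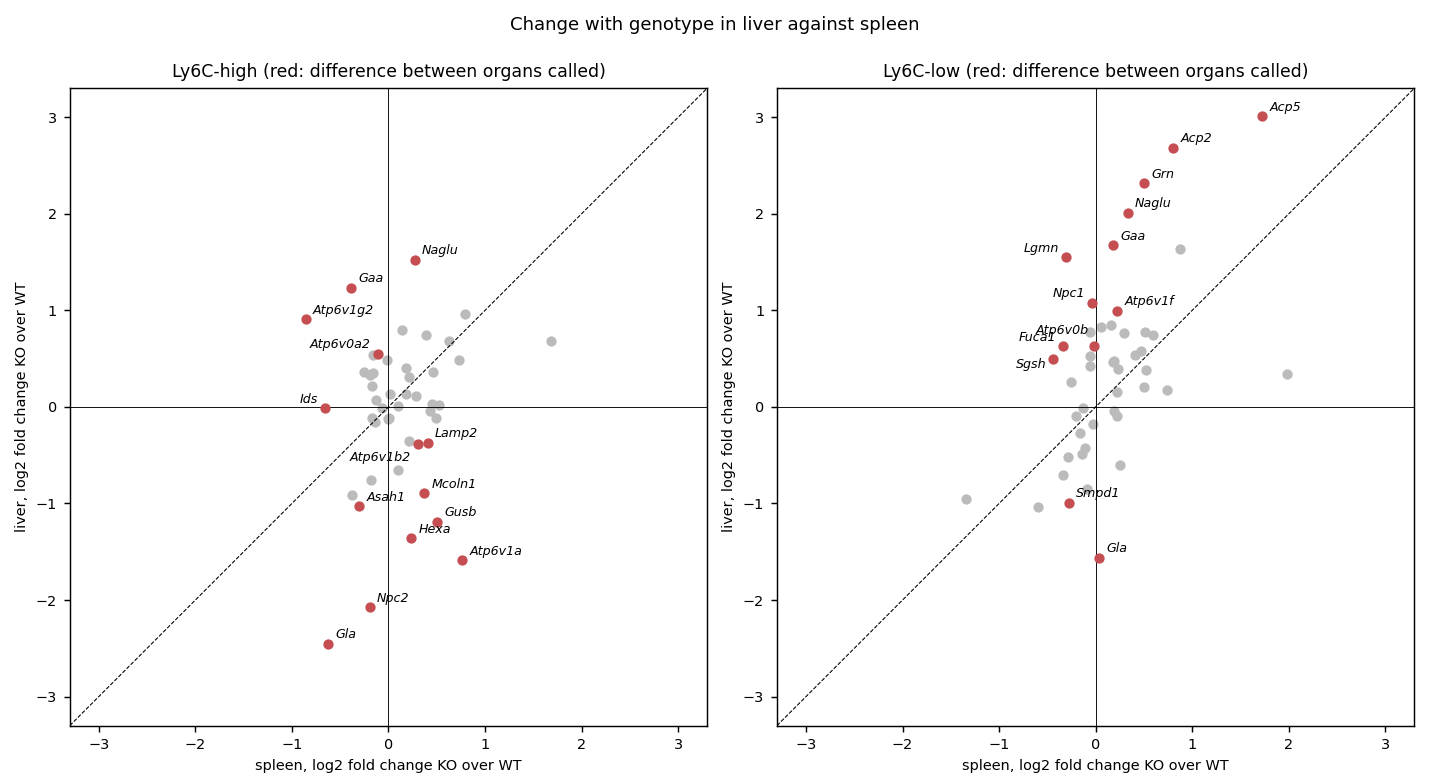
Log2 difference between KO and WT macrophages in liver (vertical axis) against spleen (horizontal axis) for the Ly6C-high and Ly6C-low populations, with 1 point per gene and red for genes whose difference between organs was called, Atp6v0d2 not being drawn because it was not tested in spleen alone. Acp2, Lgmn and Grn lie above the diagonal in Ly6C-low cells, and Atp6v1a, Npc2 and Gla below it in Ly6C-high cells.

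The next comparisons set Ly6C-low against Ly6C-high macrophages within an organ and genotype. In WT spleen, 10 of 47 members were higher in Ly6C-low cells, or 21.3% against 13.8% of the 10521 genes tested, and 6 were lower, or 12.8% against 19.8%. Acp5 was at 33.2, 33.7 and 30.8 RPM in Ly6C-high and at 131, 152 and 118 RPM in Ly6C-low libraries, a log2 difference of 2.14 (SE 0.112, adjusted p = 1.91e-07, limma). Lgmn was at 71.9, 77.5 and 74.5 RPM in Ly6C-high and at 156, 242 and 179 RPM in Ly6C-low libraries, a log2 difference of 1.47 (SE 0.145, adjusted p = 1.51e-05, limma). Both were higher in every Ly6C-low library, and 4 of the 6 proteases and other soluble proteins were called higher. Cd63 was at 126, 114 and 104 RPM in Ly6C-high and at 13.5, 13.1 and 9.97 RPM in Ly6C-low libraries, a log2 difference of -3.0 (SE 0.134, adjusted p = 7.82e-08, limma), and Npc2 was at 1651, 1921 and 1668 RPM and at 427, 549 and 469 RPM, a log2 difference of -1.71 (SE 0.11, adjusted p = 6.95e-07, limma). Every Ly6C-low library was lower for both. The granulocyte list fell alongside, from 21451 to 23840 RPM in Ly6C-high to 664 to 1552 RPM in Ly6C-low libraries, and T and NK cell genes stood at 557 to 613 and 65.7 to 108 RPM, and their part was not tested. RPM as deposited lowered the median of all genes by 0.136 and gave 10 lower members in place of 6, with 1060 genes higher and 2494 lower in place of 1451 and 2080.

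In KO spleen, 9 of 47 members were higher in Ly6C-low cells, or 19.1% against 13.0% of the 10309 genes tested, and 6 were lower, or 12.8% against 15.1%. Atp6v1g2 entered the test through the Ly6C-low libraries alone, and 8 were higher without it. Acp5 and Lgmn again had the highest and Cd63 and Npc2 the lowest log2 differences. Acp5 was at 46.9, 74.2 and 36.6 RPM in Ly6C-high and at 719, 439, 323 and 367 RPM in Ly6C-low libraries, a log2 difference of 3.11 (SE 0.302, adjusted p = 0.000384, limma). Lgmn was at 67.9, 87.1 and 67.3 RPM and at 134, 137, 178 and 162 RPM, a log2 difference of 1.04 (SE 0.173, adjusted p = 0.00359, limma). Cd63 was at 203, 387 and 507 RPM and at 132, 104, 20.4 and 22.7 RPM, a log2 difference of -2.72 (SE 0.663, adjusted p = 0.0157, limma). Npc2 was at 1509, 1404 and 1300 RPM and at 484, 419, 340 and 480 RPM, a log2 difference of -1.70 (SE 0.149, adjusted p = 0.000242, limma). None of the 4 overlapped between the subsets. The granulocyte sums of these libraries are given above.

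In WT liver, 2 of 47 members were higher in Ly6C-low cells, or 4.26% against 5.24% of the 11688 genes tested, and 7 were lower, or 14.9% against 4.84%. Atp6v0d2 was at 1.16, 0.25 and 1.34 RPM in Ly6C-high and at 4.06, 4.79 and 4.29 RPM in Ly6C-low libraries, a log2 difference of 1.46 that is a description, since it entered the test through the Ly6C-low libraries and 1 member was higher without it, and Acp5 was at 131, 132 and 158 RPM and at 208, 334 and 298 RPM, a log2 difference of 0.86 (SE 0.194, adjusted p = 0.024, limma). Npc2 was at 2811, 2506 and 2602 RPM and at 959, 1263 and 1154 RPM, a log2 difference of -1.35 (SE 0.163, adjusted p = 0.000947, limma), and Gla was at 109, 190 and 164 RPM and at 52.9, 91.9 and 92.0 RPM, a log2 difference of -1.07 (SE 0.252, adjusted p = 0.0272, limma). All 4 were separated between the subsets. The other falls were Psap, Galns, a sulfatase of keratan sulfate, and the V1 subunits Atp6v1a, Atp6v1b2 and Atp6v1e1, with log2 differences of -1.02 to -0.62. The count of lower members fell to 3 in RPM as deposited, where 789 genes were higher and 418 lower in place of 612 and 566, and to 2 without Ly6C-low replicate 3, 3 without Ly6C-high replicate 2 or 3 and 4 without Ly6C-high replicate 1 or Ly6C-low replicate 2. The higher count was 0 without Ly6C-low replicate 2 or 3 and 1 without Ly6C-low replicate 1 or Ly6C-high replicate 1 or 2.

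In KO liver, 6 of 48 members were higher in Ly6C-low cells, or 12.5% against 8.75% of the 10895 genes tested, and 2 were lower, or 4.17% against 8.26%. With the replicate number as a block, since libraries of the same number deviated together here, 9 were higher and 3 lower. Acp5 was at 323, 211 and 214 RPM in Ly6C-high and at 1498, 2524 and 3153 RPM in Ly6C-low libraries, a log2 difference of 3.38 (SE 0.371, adjusted p = 0.00361, limma). Lgmn was at 333, 296 and 265 RPM and at 1340, 846 and 666 RPM, a log2 difference of 1.78 (SE 0.3, adjusted p = 0.0116, limma). Grn, Hexa, Asah1 and Atp6v1a were also higher, with log2 differences of 0.94 to 1.45. Arsb was at 24.9, 69.2 and 57.9 RPM and at 10.2, 21.8 and 13.8 RPM, a log2 difference of -1.45 (SE 0.382, adjusted p = 0.0422, limma), and Cln3 was at 58.8, 80.2 and 74.2 RPM and at 42.1, 40.5 and 30.5 RPM, a log2 difference of -0.74 (SE 0.182, adjusted p = 0.0357, limma). No gene named here overlapped between the subsets. From Ly6C-high to Ly6C-low libraries the Kupffer cell list went from 384 to 472 RPM to 5852 to 11039 RPM, T and NK cell genes from 355 to 480 RPM to 31.1 to 120 RPM and the granulocyte list from 171 to 1243 RPM to 1.3 to 7.32 RPM, and their part was not tested. The higher count was 1 without Ly6C-high replicate 2 or 3, 2 without any 1 of the Ly6C-low replicates and 9 without Ly6C-high replicate 1, and the lower count was 0 without replicate 2 or 3 of either subset. RPM as deposited lowered the median of all genes by 0.152, with 667 genes higher and 1052 lower in place of 953 and 900.

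KCs were then set against hepatic Ly6C-low macrophages. Against WT Ly6C-low cells, 13 of 49 members were higher in KCs, or 26.5% against 26.0% of the 12515 genes tested, and 8 were lower, or 16.3% against 24.0%. Atp6v0e2, a small V0 subunit, was at 0.662, 0.872 and 0.805 RPM in Ly6C-low libraries and at 4.01, 5.32, 15.3 and 12.8 RPM in KC libraries, a log2 difference of 1.99. It and Atp6v1g2 entered the test through the KC libraries alone, and 11 members were higher without them. Lgmn was at 253, 371 and 294 RPM and at 1915, 2045, 517 and 799 RPM, a log2 difference of 1.31 (SE 0.429, adjusted p = 0.0248, limma). Both were higher in every KC library, though KCs varied widely. Gla was at 52.9, 91.9 and 92.0 RPM and at 20.1, 28.3, 13.2 and 18.5 RPM, a log2 difference of -2.51 (SE 0.288, adjusted p = 4.48e-05, limma), and Tfeb was at 210, 278 and 241 RPM and at 126, 117, 103 and 116 RPM, a log2 difference of -1.64 (SE 0.163, adjusted p = 1.71e-05, limma). Both were lower in every KC library. Gaa (1.27), Naglu (1.25), Acp2 (1.21), Grn (1.14) and the tripeptidyl peptidase Tpp1 (0.90) were also higher in KCs. Of the glycolipid group 4 of 10 were lower and 0 higher.

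These counts depended on the scaling, since the median of all genes was 0.527 higher in RPM as deposited, where 23 members were higher and 4 lower, and 5477 genes were higher and 1385 lower in place of 3254 and 2999. Each of the 21 called members kept its sign on that scale, and 17 kept their call. KCs held 1179 to 3837 RPM of 5 hepatocyte genes, the most in replicate 3, against 11 to 168 RPM in the other hepatic libraries, and 609 to 1043 RPM of 5 B cell genes, against 20.6 to 391 RPM elsewhere. Immediate early genes were at 1565 to 2703 RPM in KCs and 18696 to 27528 RPM in WT hepatic Ly6C-low libraries, and sinusoidal endothelial genes at 1983 to 5018 and 247 to 375 RPM. Their part in the result was not tested.

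Against KCs, hepatic Ly6C-low KO macrophages had 14 of 49 members higher, or 28.6% against 19.4% of the 12127 genes tested, and 5 lower, or 10.2% against 26.3%. Acp5 was at 559, 608, 452 and 743 RPM in KCs and at 1498, 2524 and 3153 RPM in Ly6C-low KO libraries, a log2 difference of 2.5 (SE 0.31, adjusted p = 0.000308, limma). Acp2 was at 321, 272, 148 and 308 RPM and at 512, 535 and 396 RPM, a log2 difference of 1.45 (SE 0.277, adjusted p = 0.00261, limma). Both were higher in every KO library, and 4 of the 6 proteases and other soluble proteins were called higher. Of 15 V-ATPase genes, 4 were higher and 3 lower. Atp6v0d2 (log2 difference -3.36) and Atp6v0e2 (-2.37, at 0, 0.156 and 1.61 RPM in the KO libraries) entered the test through the KC libraries alone, and 3 members were lower without them. The counts moved to 5 higher and 13 lower in RPM as deposited, in which the median of all genes was 0.482 lower, with 977 genes higher and 5156 lower in place of 2351 and 3184. All 19 called members kept their sign on that scale and 10 their call, and the lower count was 2 or 3 without KC replicate 1, 2 or 4 or any 1 of the KO replicates.

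The V0 sector has paralogous subunits, of which the a pair peaked in the same group and the d and e pairs in different ones. Atp6v0a1 and Atp6v0a2, forms of the large membrane subunit, were both highest in KCs, at 178 ± 10.7 and 71.5 ± 3.74 RPM (SD, n = 4), and higher there than in WT hepatic Ly6C-low cells by 0.74 (adjusted p = 0.00293, limma) and 0.75 (adjusted p = 0.00234, limma) on the log2 scale. Neither was called in any genotype comparison. Atp6v0a2 nevertheless lay higher in all 3 KO than WT hepatic Ly6C-low libraries (45.8, 41.2 and 39.0 against 26.0, 30.2 and 27.3 RPM), with a difference under 1.5-fold (0.54, adjusted p = 0.0333, limma). The same separation was seen in hepatic Ly6C-high cells (54.3, 66.3 and 57.5 against 29.6, 32.3 and 34.5 RPM). There its log2 difference was 0.55 after scaling, not called, and 0.86 in RPM as deposited, called. Its difference between genotypes in Ly6C-high cells was called higher in liver than in spleen, by 0.70.

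Atp6v0d1 and Atp6v0d2 differed in their range. Atp6v0d1 stayed between 32.1 and 106 RPM in all 29 libraries, whereas Atp6v0d2 ranged from 0.049 to 85.5 RPM. KCs alone were divided for it, at 66.3, 4.83, 0.786 and 85.5 RPM, so that its log2 difference of 1.07 from WT hepatic Ly6C-low cells was not called (adjusted p = 0.435, limma). In the spleen it held between 1 and 18 reads per library and was not tested. Atp6v0d1 was called in splenic Ly6C-low cells only among the 4 genotype comparisons, with log2 differences of 0.18 in hepatic Ly6C-low (adjusted p = 0.623, limma), 0.36 in hepatic Ly6C-high (adjusted p = 0.321, limma) and 0.47 in splenic Ly6C-high cells (adjusted p = 0.00892, limma, under 1.5-fold).

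Atp6v0e was at 80.9 to 274 RPM over the libraries, and Atp6v0e2 was at 0 to 15.3 RPM and reached 4 RPM or more in all 4 KC libraries and in 1 other, hepatic Ly6C-high KO replicate 3. In the spleen Atp6v0e2 held 0 to 7 reads per library and was not tested. It is a member only through KCs, so its peak there is a description.

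**Figure D5:**
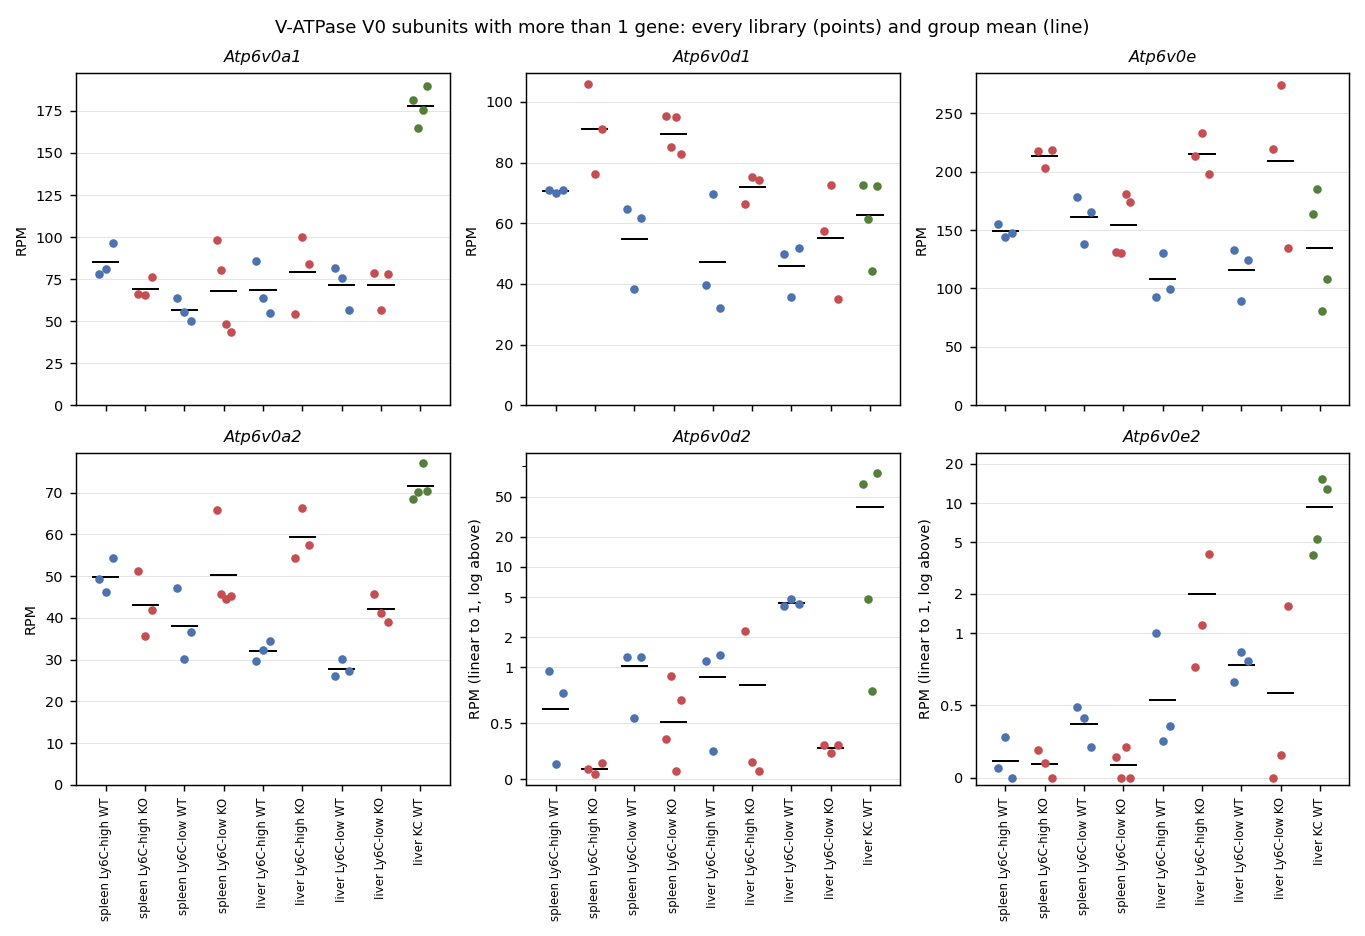
RPM of the paired V0 subunits Atp6v0a1 and Atp6v0a2, Atp6v0d1 and Atp6v0d2, and Atp6v0e and Atp6v0e2 in every library, with WT in blue, KO in red, KCs in green, lines at group means and, for Atp6v0d2 and Atp6v0e2, an axis that is linear to 1 RPM and logarithmic above. Atp6v0d2 spans 0.049 to 85.5 RPM while Atp6v0d1 stays between 32.1 and 106 RPM.

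Lamp1 and Lamp2 are the most abundant glycoproteins of the lysosomal membrane. In hepatic Ly6C-low cells Lamp1 was at 592, 524 and 712 RPM in WT and at 1386, 980 and 886 RPM in KO libraries, a log2 difference of 0.77 (SE 0.222, adjusted p = 0.0226, limma), while Lamp2 was at 359, 251 and 288 RPM in WT and at 273, 328 and 310 RPM in KO libraries, a log2 difference of -0.01 (adjusted p = 0.978, limma). Lamp1 was separated and Lamp2 overlapped. In the other populations Lamp1 had log2 differences of 0.03 (hepatic Ly6C-high, adjusted p = 0.95, limma), 0.51 (splenic Ly6C-low, adjusted p = 0.13, limma) and 0.45 (splenic Ly6C-high, adjusted p = 0.0157, limma), none of them called. Those of Lamp2 were -0.37 (adjusted p = 0.241, limma), -0.13 (adjusted p = 0.715, limma) and 0.41 (adjusted p = 0.0192, limma), in the same order. The Lamp1 call in hepatic Ly6C-low cells was lost in 3 of 13 alternative settings, namely without the filter on low genes and without WT replicate 1 or 2.

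Neither transcription factor was called in a genotype comparison. In hepatic Ly6C-low cells Tfeb was at 210, 278 and 241 RPM in WT and at 158, 190 and 182 RPM in KO libraries, with no overlap, and its log2 difference of -0.49 had an adjusted p of 0.0549 (limma). Tfe3 was at 20.5, 29.3 and 27.6 RPM in WT and at 37.0, 40.0 and 27.9 RPM in KO libraries, with a log2 difference of 0.38 (adjusted p = 0.186, limma). The log2 differences of Tfeb were -0.16 in hepatic Ly6C-high, -0.14 in splenic Ly6C-low and -0.14 in splenic Ly6C-high cells, and those of Tfe3 0.07, 0.52 and -0.13. Tfeb was higher in Ly6C-low than Ly6C-high splenic cells of both genotypes, by 0.77 in WT (adjusted p = 4.02e-05, limma) and 0.74 in KO mice (adjusted p = 0.0195, limma). KCs held the least Tfeb and the most Tfe3, at 103 to 126 and 59.0 to 76.3 RPM, with Tfe3 higher than in WT hepatic Ly6C-low cells by 0.74 (adjusted p = 0.00832, limma).

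A list of 68 further genes in and around the lysosome, 65 of them in the table, was followed as the pathway around the members. It also holds genes of enzyme sorting, nutrient sensing and autophagy, such as Sort1, Rraga and Sqstm1. Its shares are therefore not shares of lysosomal proteins alone. In hepatic Ly6C-low cells 31 of 64 tested rose in KO mice, or 48.4% against 20.2% of all genes, and 4 fell, or 6.25% against 22.5%, with a median log2 difference of 0.70. The largest changes were Pla2g15, the lysosomal phospholipase A2 (70.1 RPM in WT and 671 RPM in KO libraries, log2 difference 3.22), the histidine and peptide transporter Slc15a3 (2.75), Rraga, a GTPase of nutrient sensing (-2.14), and Naaa, an acylethanolamine amidase (-1.54). In hepatic Ly6C-high cells 8 of 64 rose and 8 fell, 12.5% each against 15.7% and 14.9% of all genes (17 and 4 in RPM as deposited), led by the hyaluronidase Hyal2 (1.83), the mannose 6-phosphate receptor Igf2r (1.48), Rraga (-1.65) and Cln8 (-1.32). In splenic Ly6C-low cells 4 of 64 rose, or 6.25% against 4.05% of all genes, and 2 fell, or 3.12% against 4.30%, led by Slc15a3 (1.43), Fnip2 (1.20), Gnptg (-0.72) and the beta-mannosidase Manba (-0.62). In splenic Ly6C-high cells 2 of 63 rose, Tfec (0.95), a factor related to Tfeb, and Tmem192 (0.65), and 2 fell, Pld3 (-1.01) and Sqstm1 (-0.63), or 3.17% each against 9.77% and 12.5% of all genes.

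Between subsets, the Ly6C-low cells of WT spleen had 6 of 63 pathway genes higher and 9 lower, or 9.52% and 14.3% against 13.8% and 19.8% of all genes. In KO spleen the counts were 9 and 7 of 64, or 14.1% and 10.9% against 13.0% and 15.1%. In WT liver they were 0 and 6 of 63, the latter 9.52% against 4.84%, and in KO liver 12 and 2 of 65, or 18.5% and 3.08% against 8.75% and 8.26%. Tfec was lower in Ly6C-low cells of WT spleen (-3.0), KO spleen (-2.84) and WT liver (-1.41), and Pla2g15 led the rise in KO liver (2.78). KCs had 20 of 64 higher and 19 lower than WT hepatic Ly6C-low cells, or 31.2% and 29.7% against 26.0% and 24.0% of all genes, and 31 and 7 in RPM as deposited. Hepatic Ly6C-low KO cells had 34 of 65 higher and 9 lower than KCs, or 52.3% and 13.8% against 19.4% and 26.3%, and 21 and 15 in RPM as deposited. Sort1, a sorting receptor of lysosomal enzymes, was at a log2 difference of -2.68 in the first and 4.11 in the second. The genotype difference in Ly6C-high cells was higher in liver than in spleen for 4 of 65 and lower for 10, or 6.15% and 15.4% against 17.6% and 16.0%, and for 20 and 4 in RPM as deposited. In Ly6C-low cells it was higher for 25 and lower for 4, or 38.5% and 6.15% against 12.1% and 14.7%.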

How the data were processed

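RNA of sorted macrophages was amplified with a mouse transcriptome amplicon panel (Ion AmpliSeq, 1 ng of total RNA) and sequenced on the Ion Proton, and the authors deposited 1 table of RPM (reads scaled to a common library total) per gene made with the AmpliSeqRNA plug-in, on build mm10 per the submitters' processing notes. All 29 columns matched a sample, and the number of per-sample columns not used was 0. The RPM steps gave whole reads within 0.1 read for 100.0% of values, from which library sizes were recovered.

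RPM were divided by relative log expression size factors, and log2 of that value plus 1 was fitted with limma 3.58.1 (R 4.3.3, mean-variance trend, two-sided), 1 fit per comparison, for genes of at least 1 RPM in at least 3 libraries of the fit. Because the deposited values were RPM, this replaced a count test as the main result, and edgeR 4.0.16 and DESeq2 1.42.0 were run as alternatives on the recovered reads. P-values were adjusted by Benjamini-Hochberg over all genes tested, and a call needed a change over 1.5-fold and an adjusted p below 0.05. Overlap of groups was judged on RPM as deposited.

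Samples were grouped by tissue, Ly6C class and genotype from the labels. The members and gene lists were chosen with earlier results of these data known. Values were given in full for up to 4 called, non-overlapping members in each direction per genotype comparison and up to 2 in each other comparison, and always for Tfeb, Tfe3, Lamp1, Lamp2 and the paralogous V0 pairs, with no p for members that reached the filter only in the group where they were higher, and pathway genes by counts with up to 2 called in each direction. Same-numbered libraries correlated with each other, in their deviations from the group means, over 0.1 in every pair only for the hepatic KO subsets (0.23 to 0.53), where the fit with a block is therefore given beside the one without it. The deleted genes and Ly6c genes were not analysed here.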

Additional observations from a re-analysis of the deposited data

Results flagged for a closer look

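A single library lay far from its group in 7 of 98 tests, 1 for each member in each of the 2 groups of 4 libraries, and chance alone gives about 1 in 20, or 4.9. The measure is the gap to the nearest library divided by the range of the group. In splenic Ly6C-low KO macrophages, replicate 1 was high for Atp6v0a2 (ratio 0.949, 65.9 RPM against 44.5 to 45.6), Hexa (0.878, 66.6 against 59.3 to 60.2) and Naglu (0.877, 52.3 against 28.7 to 31.6), and replicate 3 was high for Atp6v0b (0.906, 292 against 238 to 243). Among KCs, replicate 3 was low for Atp6v1b2 (0.851, 119 RPM against 188 to 200) and high for Atp6v1g2 (0.864, 7.25 against 3.77 to 4.24), and replicate 4 was high for Naglu (0.839, 89.3 against 76.2 to 78.3).

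The genotype difference of 28 results was called different between liver and spleen by the interaction term. In Ly6C-high macrophages it was higher in liver for Atp6v1g2 (by 1.78 on the log2 scale), Gaa (1.65), Naglu (1.29), Atp6v0a2 (0.70) and Ids (0.68), of which Ids differed because it fell in spleen (-0.66) and stood at -0.01 in liver. It was lower in liver for Atp6v1a (-2.32), Npc2 (-1.84), Gla (-1.79), Gusb (-1.66), Hexa (-1.56), Mcoln1 (-1.23), Lamp2 (-0.74), Asah1 (-0.69) and Atp6v1b2 (-0.65). In Ly6C-low macrophages it was higher in liver for Acp2 (1.89), Lgmn (1.86), Grn (1.82), Naglu (1.69), Gaa (1.5), Acp5 (1.29), Npc1 (1.12), Fuca1 (0.97), Sgsh (0.94), Atp6v1f (0.78) and Atp6v0b (0.65), and lower for Atp6v0d2 (-1.67), Gla (-1.59) and Smpd1 (-0.71). Atp6v1g2 and Atp6v0d2 were under the level for testing in some of the groups. Sex differed with genotype in the liver libraries, and organ, sex and genotype cannot be told apart in these differences.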

How the results depend on the processing

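Of the 24 counts of called members, the number that moved by more than 1.5 times was 9 in RPM as deposited, 7 without the filter on low genes, 6 with all libraries in 1 fit, 4 with a replicate block, 3 with edgeR, 1 with DESeq2 and 0 with 0.1 added in place of 1. RPM as deposited gave 10 higher members in hepatic Ly6C-high KO cells, 10 lower in the WT spleen subsets, 3 lower in the WT liver subsets, 23 higher and 4 lower in KCs, 5 higher and 13 lower in hepatic Ly6C-low KO cells against KCs, and 12 higher and 4 lower between organs in Ly6C-high cells. Without the filter, 3 were higher in splenic Ly6C-low KO cells, 1 higher and 3 lower in the WT liver subsets, 2 higher and 1 lower in the KO liver subsets, 2 lower against KCs and 3 higher between organs in Ly6C-high cells. With all libraries in 1 fit, 1 was higher in splenic Ly6C-high KO cells, 2 lower in splenic Ly6C-low KO cells, 8 higher in hepatic Ly6C-high KO cells, 0 higher and 4 lower in the WT liver subsets and 1 lower between organs in Ly6C-low cells. With a replicate block, 2 were higher in hepatic Ly6C-high KO cells, 5 higher in the KO spleen subsets, 4 lower in the WT liver subsets and 2 lower against KCs, and outside the KO liver subsets the numbers are not known to pair the samples, correlations running from -0.25 to 0.6. edgeR gave 2 lower in splenic Ly6C-low KO cells, 1 higher in the WT liver subsets and 2 higher in the KO liver subsets, and DESeq2 2 lower in splenic Ly6C-low KO cells. The cause was not tested. A level of 5 RPM in place of 1 left 47 of 49 members.

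Leaving out 1 library at a time gave ranges, higher then lower, of 4 to 6 and 1 to 3 for genotype in splenic Ly6C-high, 1 to 4 and 0 to 2 in splenic Ly6C-low, 1 to 7 and 4 to 11 in hepatic Ly6C-high and 12 to 19 and 5 to 7 in hepatic Ly6C-low cells. For the subsets the ranges were 9 to 10 and 6 to 7 in WT spleen, 6 to 10 and 4 to 7 in KO spleen, 0 to 2 and 2 to 5 in WT liver and 1 to 9 and 0 to 2 in KO liver. They were 9 to 16 and 7 to 10 for KCs against WT Ly6C-low cells, 10 to 15 and 2 to 4 for KO Ly6C-low cells against KCs, 2 to 8 and 5 to 15 between organs in Ly6C-high and 9 to 12 and 2 to 3 between organs in Ly6C-low cells. For 137 results of named members over the 12 comparisons, 1785 of 2051 alternative values kept direction and side of the threshold, 206 lost the call, 8 gained one and 52 uncalled values changed sign, and the count of called values that reversed was 0. Acp5, Acp2, Grn, Naglu, Gla, Gusb and Smpd1 kept their calls in hepatic Ly6C-low cells under each of the 13 alternatives run. Atp6v0d2 could be tested in only 10 of them and entered the test through the WT libraries alone, so its calls there are no support. Members of a few reads per library, such as Atp6v0d2 in KO cells, are limited by depth.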

Other observations

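Acp5 was the called member with the largest rise in hepatic and splenic Ly6C-low KO macrophages, and its level over the 29 libraries was most like that of Acp2 (Pearson r = 0.87), Lgmn (0.79) and Tpp1 (0.65) among the members. These values are a description over libraries that share groups, organs and depth.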
